A study of Mus musculus with 8 samples.

Results

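The response to 2 steroid hormones given together was compared, gene by gene, with what the hormones did singly. For each of 18194 genes the interaction was computed as (Dex+E2 minus E2) minus (Dex minus Untreated) from the means of 2 arrays per group. All 8 arrays entered, with every gene that had a probe set of 1 symbol, and no gene was chosen by its values. Each gene was read from its brightest probe set over the 8 arrays, a choice that did use the values. The cells were of the 7438 line, mouse mammary cells carrying a glucocorticoid receptor fused to GFP and an estrogen receptor fused to Cherry, both under a tet-regulated promoter. Every group, the untreated one included, had been kept for 48 h in medium with 10% charcoal-dextran serum and for its last 24 h without tetracycline. The controls thus had the same inducing condition for both fusion proteins as the treated cells. The amount of either fusion protein was not measured here. Cells were then left untreated, or given 100 nM dexamethasone (Dex, a synthetic glucocorticoid), 100 nM estradiol (E2) or both together for 2 h. The labels do not state that replicates 1 and 2 were separate cultures, so the p-values reflect array-to-array spread alone, which may be technical. The results concern 1 line with tagged receptors, kept without tetracycline, at 1 dose and 1 time.

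The glucocorticoid and estrogen receptors are ligand-activated transcription factors of the nuclear receptor family. Each binds its own class of DNA element and recruits coactivators or corepressors to nearby genes, and the receptors can occupy shared enhancers. A gene that answers both hormones can be set against either of 2 reference predictions for the co-treated cells. The product prediction multiplies the fold changes of the single hormones, which is additivity on the log2 scale, so that an interaction of 0 means that the folds multiplied. The sum prediction adds the signal gained with each hormone to the untreated signal, which is additivity on the linear scale. For genes raised by both hormones the product prediction is the higher of these, and a gene may lie below one and on the other.

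Promoters of 3 genes are printed because the genes mark different outcomes described further on: Per1 lay below both predictions, Spsb1 below the product and on the sum, and Sgk1 holds a full glucocorticoid response element. Each is 1 start site from RefSeq (mouse build GRCm38.p6), from 250 bases before the start to 50 bases after it, read 5′ to 3′ on the gene's strand. Capitals mark AGAACA (a glucocorticoid half-site), GGTCA (an estrogen half-site) and CACGTG (an E-box, the element bound by CLOCK and its partner), each on either strand. The genes shown and the motifs searched were chosen after the values had been seen.
Per1, first start site, chr11:69098699-69098998, plus strand: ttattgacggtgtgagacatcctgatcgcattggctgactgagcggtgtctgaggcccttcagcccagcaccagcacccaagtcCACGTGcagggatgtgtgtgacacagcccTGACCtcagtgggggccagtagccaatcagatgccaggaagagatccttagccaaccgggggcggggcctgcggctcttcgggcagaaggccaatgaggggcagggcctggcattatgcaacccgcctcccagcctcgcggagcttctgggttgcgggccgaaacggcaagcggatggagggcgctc
Spsb1, chr4:149954957-149955256, minus strand: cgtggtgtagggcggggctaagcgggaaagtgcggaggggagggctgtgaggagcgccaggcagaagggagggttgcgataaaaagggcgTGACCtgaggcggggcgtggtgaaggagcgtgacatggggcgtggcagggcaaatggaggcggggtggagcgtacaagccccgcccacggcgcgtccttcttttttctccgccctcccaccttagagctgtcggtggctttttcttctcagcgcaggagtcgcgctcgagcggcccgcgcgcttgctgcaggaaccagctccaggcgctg
Sgk1, 1 of 6 start sites, chr10:21993640-21993939, plus strand: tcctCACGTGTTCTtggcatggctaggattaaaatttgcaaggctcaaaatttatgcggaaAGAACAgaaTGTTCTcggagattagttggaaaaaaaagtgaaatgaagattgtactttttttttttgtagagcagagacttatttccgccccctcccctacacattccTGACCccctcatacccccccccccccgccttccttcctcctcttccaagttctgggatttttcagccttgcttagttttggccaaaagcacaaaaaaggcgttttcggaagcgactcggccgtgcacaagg
The Per1 window held 1 E-box, starting at base -166 from the start site, and 1 estrogen half-site at -137, while the window of the other Per1 start site, at chr11:69099902-69100201, held neither of these nor a glucocorticoid half-site. Spsb1 held 1 estrogen half-site, at -160. The Sgk1 window held the full palindrome (AGAACA, any 3 bases, TGTTCT) at -189, a further glucocorticoid half-site at -242 that overlaps an E-box at -246, and an estrogen half-site at -81.
Of 32851 promoter windows of this length, the full glucocorticoid palindrome was in 3 (0.00913%), AGAACA in 19.0%, the full estrogen palindrome (GGTCA, any 3 bases, TGACC) in 0.07%, GGTCA in 40.5%, CACGTG in 7.15%, a relaxed glucocorticoid palindrome (GNACA, any 3 bases, TGTNC) in 0.475% and the cyclic AMP element TGACGTCA in 1.79%. Of the 29 genes named by rule, 23 had a promoter in the table: 1 (Sgk1) held the full glucocorticoid palindrome, 2 held AGAACA, none the full estrogen palindrome, 13 GGTCA, 7 CACGTG, 1 the relaxed palindrome and 3 TGACGTCA, counting every start site of a gene. The shares are per window and the counts are per gene over all its windows, so they cannot be compared directly. These matches describe letters in a window and say nothing of binding.

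The line was checked against cell markers and the arrays against their labels. In untreated cells 13 of 14 mesenchymal markers lay above the median of the array, with Vim at 13.96 and Sparc at 12.89 on the log2 scale, where the median of all probe sets was 5.63. The mesenchymal list ran from 4.06 to 14. Of 13 epithelial markers 6 lay above the median and 7 did not, over a range of 3.24 to 8.19, with Epcam at 6.88 and the luminal keratin Krt8 at 5.88 above it, and Krt18 at 4.45 and the epithelial cadherin Cdh1 at 3.24 below. As a coarse check, since probe sets differ in brightness, group means averaged over each list ran from 9.52 to 9.72 for mesenchymal, 5.36 to 5.44 for epithelial, 5.18 to 5.21 for immune and 4.43 to 4.79 for endothelial and adipose markers. For 2 arrays, replicate 2 of E2 and replicate 1 of Dex+E2, the description field names a ChIP of the glucocorticoid receptor, whereas their titles and treatments place them in the expression groups. Replicates differed by more than 0.5 in 390 genes for Dex+E2, against 19 for Dex, 56 for untreated and 95 for E2. Every interaction rests on the E2 and Dex+E2 arrays. Over 34 genes described below, the interaction kept its sign in 33 without E2 replicate 2 and in 32 without Dex+E2 replicate 1, and the exceptions are given with their genes.

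On the log2 scale 1 gene, Per1, had an interaction past the threshold, and it was negative. Per1 encodes a period protein of the repressing arm of the circadian clock and is a direct target of the glucocorticoid receptor in many tissues. Its signal (the antilog of the RMA value) was 106 and 87.4 on the untreated arrays, 639 and 575 with Dex, 393 and 362 with E2, and 573 and 458 with both. Every treated array lay above both untreated ones, and the co-treated pair lay above the E2 pair and below the Dex pair, with no overlap. The higher co-treated array (573) and the lower Dex array (575) were nearly level. From an untreated geometric mean of 96.1, Dex alone gave 606, E2 alone gave 377 and co-treatment 512, where the sum prediction was 887 and the product prediction 2376. Co-treated cells thus reached 57.8% of the sum and 21.6% of the product. The interaction was -2.21 ± 0.18 (SE, n = 2 arrays per group; 95% interval -2.61 to -1.81), with a Benjamini-Hochberg adjusted p of 0.00348 in limma and a value below 0 in all 16 choices of 1 array per group.
The same number reads as a Dex effect that was 2.66 without E2 and 0.44 with it, or as an E2 effect that was 1.97 without Dex and -0.24 with it. Both effects of a single hormone on untreated cells passed the test, with limma adjusted p of 4.803e-06 for Dex and 0.0002673 for E2, whereas neither did on top of the other hormone (adjusted p 0.224 for Dex and 0.999 for E2). The interaction was -2.27 without E2 replicate 2 (adjusted p 0.0188) and -2.37 without Dex+E2 replicate 1 (adjusted p 0.00129). It was -2.14 without Dex replicate 1, where its limma adjusted p was 0.063 and no gene passed.

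**Figure D1:**
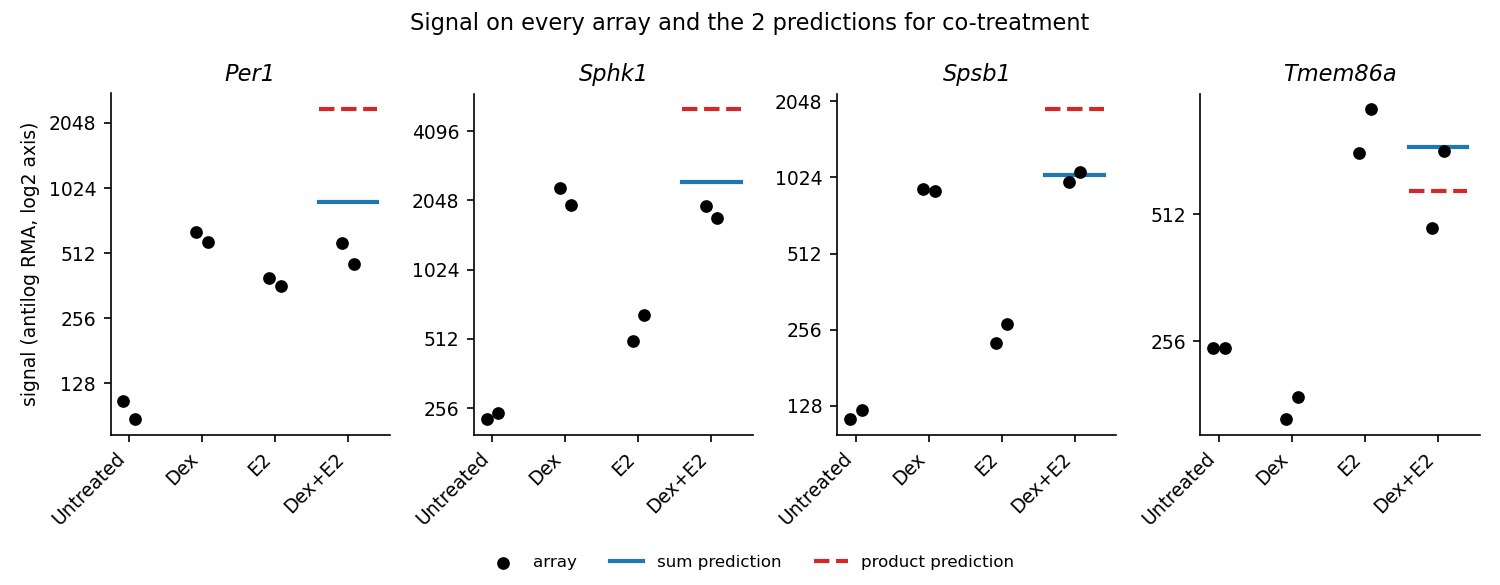
Signal on each of the 2 arrays per group (points, log2 axis) for Per1, Sphk1, Spsb1 and Tmem86a, with the sum prediction (solid line) and the product prediction (dashed line) for co-treated cells. Per1 lay at 57.8% of its sum prediction, Spsb1 at 98.5% of its sum, and Tmem86a at 101% of its product.

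That call was 0.00550% of the genes tested, and none was called in the positive direction (0%). At an unadjusted p under 0.05 there were 482 genes below 0 (2.65%) and 523 above (2.87%), and 47.7% of all genes lay below 0. The median gene had an interaction of 0.01 with a standard error of 0.136 and a 95% interval of 0.303 on either side, and the 5th and 95th percentiles were -0.283 and 0.284. That interval is not adjusted for the number of genes, and a call after adjustment needed a larger interaction: Sphk1 at -1.49 and Orm3 at -0.78, described below, were not called. The count of called genes was 20 without Dex+E2 replicate 1 (19 negative, 1 positive), 2 without E2 replicate 1 and 0 without Dex replicate 1, and 1 without any other single array.
On the linear scale no gene departed from the sum prediction past the threshold (0% of 18187 genes with a prediction above 0). The smallest limma-based adjusted p was 0.266, with 572 genes below (3.15%) and 363 above (2.00%) at an unadjusted p under 0.05. Per1 itself had a linear departure, the log2 ratio of the observed to the summed signal, of -0.79 ± 0.12 (SE; 95% interval -1.05 to -0.53) and an adjusted p of 0.378. Without Dex+E2 replicate 1 the linear count was 23, Per1 among them at an adjusted p of 0.0305, and it was 0 without any other array.

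The genes next in order of p were nearly all on the negative side, although none passed. The first 13 by p were all below 0, and of the first 30 there were 29 below 0 and 1 above. Of those 30, 26 had a mean Dex effect (the average of the Dex effects with and without E2) that passed the test upward. In 1 it passed downward. Over all genes, 1.08% passed upward and 1.14% downward.
Sphk1, which makes sphingosine 1-phosphate, had signals of 230 and 245 untreated, 2316 and 1952 with Dex, 502 and 648 with E2, and 1932 and 1713 with both. The co-treated arrays lay just below the Dex arrays, far above the E2 arrays, and did not overlap either. Its interaction was -1.49 ± 0.19 (limma adjusted p 0.0916), at 74.0% of the sum and 35.6% of the product.
Foxred2, a flavoprotein of the endoplasmic reticulum, had 178 and 205 untreated, 873 and 771 with Dex, 377 and 369 with E2, and 679 and 480 with both. Here co-treated cells lay below Dex alone on both arrays, though above E2 alone. The interaction was -1.48 ± 0.21 (limma adjusted p 0.170), and the signal reached 57.0% of the sum. Without Dex+E2 replicate 1 the adjusted p of Foxred2 was 0.0034 and that of Sphk1 was 0.0271, and Sphk1 also passed without E2 replicate 1, at 0.0273.
Errfi1, a feedback inhibitor of the epidermal growth factor receptor, had signals of 512 and 595 untreated, 2263 and 2102 with Dex, 998 and 1139 with E2, and 2195 and 2016 with both. Co-treated and Dex arrays overlapped. The interaction was -1.0 ± 0.15 (limma adjusted p 0.170), at 78.1% of the sum.
Orm3, of the acute phase orosomucoid family, behaved otherwise, since E2 alone did little to it. Its signals were 28.0 and 30.1 untreated, 107 and 102 with Dex, 33.7 and 33.2 with E2, and 69.7 and 70.2 with both. The co-treated pair sat well below the Dex pair with no overlap, at 64.3% of the sum and 58.1% of the product, and the interaction was -0.78 ± 0.11 (limma adjusted p 0.170). Its untreated and E2 signals were dim, in the range where RMA compresses differences, so these percentages are approximate, and a filter on dim genes removed it.
Il6ra, the ligand-binding chain of the interleukin 6 receptor, had an interaction of -1.26 ± 0.21 (limma adjusted p 0.288), but its other probe set gave 0.27 and their mean -0.50. Plin4, a lipid droplet coat protein, had -0.88 ± 0.15 (limma adjusted p 0.291) and lay at 83.0% of its sum.

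Spsb1, a substrate adaptor of a ubiquitin ligase, separated the scales most clearly among these. Its signals were 113 and 124 untreated, 924 and 904 with Dex, 226 and 270 with E2, and 982 and 1075 with both. Both co-treated arrays lay above both Dex arrays. The geometric mean of 1027 stood at 98.5% of the sum prediction of 1043, with a linear departure of -0.02 (95% interval -0.24 to 0.20), and at 53.8% of the product prediction of 1910. Its log2 interaction was -0.90 ± 0.15 (limma adjusted p 0.288), and its other 3 probe sets gave -0.21, -0.15 and -0.02, so that the mean of its probe sets gave -0.32. The choice of scale alone moved Spsb1 from far below its prediction to level with it.

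Genes on the positive side had smaller interactions and none passed. Ahr, the aryl hydrocarbon receptor, had the smallest p of them. Its signals were 358 and 340 untreated, 89.9 and 104 with Dex, 255 and 229 with E2, and 107 and 118 with both. The Dex and co-treated arrays were the low ones, and the log2 differences from untreated were -1.85 with Dex and -0.53 with E2. The interaction was 0.75 ± 0.14 (limma adjusted p 0.463), with a Dex effect of -1.85 without E2 and -1.10 with it. No sum prediction exists for the probe set used, because the summed losses exceed the untreated signal. The other, dimmer probe set of Ahr gave an interaction of 0.26, with a Dex effect of -0.10 without E2. The mean of both probe sets gave 0.50.
Klf3, a Kruppel-like transcriptional repressor, had 932 and 866 untreated, 465 and 441 with Dex, 1060 and 987 with E2, and 788 and 693 with both. Dex arrays were lowest and co-treated arrays intermediate, with no overlap among the 4 groups. Its interaction was 0.52 ± 0.13 (limma adjusted p 0.852), although 1 of its 7 probe sets was below 0, at -0.13, and their mean gave 0.21. Apln, the peptide ligand apelin, had 0.52 ± 0.13, with signals of 325 and 289 untreated, 201 and 218 with Dex, 239 and 235 with E2 and 226 and 239 with both. All treated arrays of Apln lay below the untreated ones, and the co-treated arrays lay above both Dex arrays and overlapped the E2 arrays.
The other 5 were Tacr3, a tachykinin receptor, at 0.78, Gm8579 at 0.69, the synaptic gene Arc at 0.63, the orphan receptor Nr2e1 at 0.62 and Tex19.1 at 0.57. The other probe sets of Tacr3 gave 0.17 and 0.10, and that of Nr2e1 gave 0.01, with means of 0.35 and 0.31 for these genes. Of these, Gm8579, Arc, Nr2e1 and Tex19.1 had untreated log2 means of 5.12, 5.41, 3.74 and 5.23, all below the median probe set at 5.63, where RMA compresses differences.

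**Figure D2:**
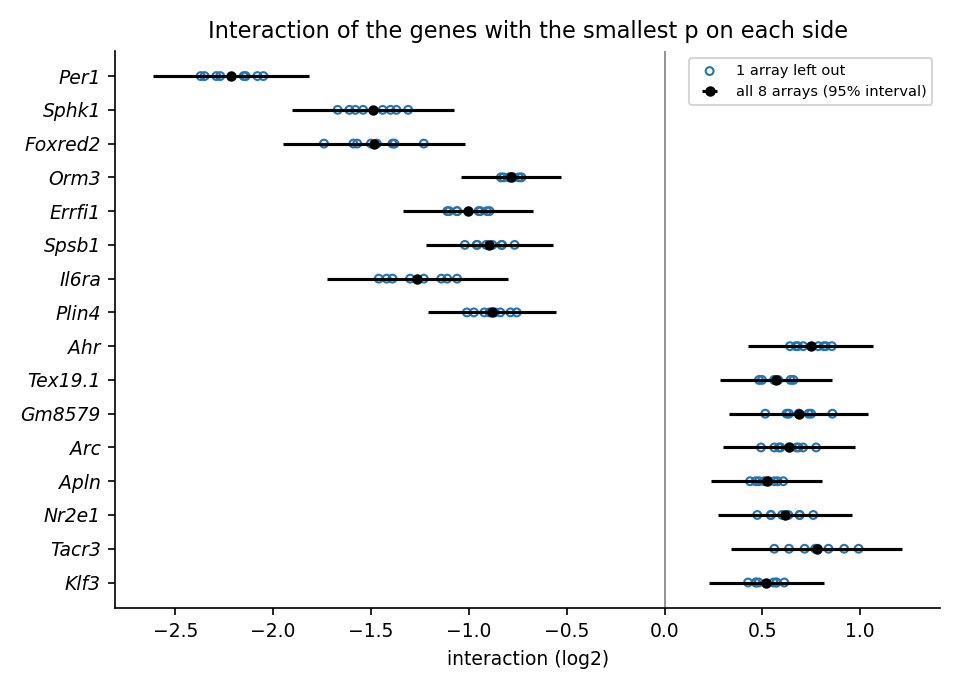
Log2 interaction (x axis) of the 8 genes with the smallest p on each side, from all 8 arrays (filled points, bars are 95% intervals) and with each array left out in turn (open circles). Per1 stayed between -2.37 and -2.05, and no open circle crossed 0 for any of these 16 genes.

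Beyond single genes, the sign of the interaction followed the direction of the Dex response. The mean Dex effect passed the limma test in 404 genes (2.22%), 196 higher (1.08%) and 208 lower (1.14%). In a balanced design this average and the interaction are orthogonal contrasts, and their errors are uncorrelated where the spread is equal in all groups. Here it was not: the SD of replicate differences was 0.197 for Dex+E2, 0.159 for E2, 0.156 for untreated and 0.132 for Dex. The sets are described by counts and medians only, with no test.
Of the 196 genes with a higher mean Dex effect, 175 (89.3%) had an interaction below 0, against 47.7% of all genes, and 116 were below 0 in all 16 choices of 1 array per group, against 8.04% of all genes. Their median interaction was -0.315 against 0.00938 over all genes. The median Dex effect was 0.718 without E2 and 0.451 with it, and the median E2 effect was 0.145 without Dex and -0.149 with it. On the linear scale 173 of 196 lay below the sum, at a median of 84.8% of it. The 187 of them whose mean E2 effect did not pass the test gave much the same values, with 167 below 0, a median interaction of -0.302 and a median of 84.9% of the sum.
The 208 genes with a lower mean Dex effect showed the mirror image at a smaller size. There 154 lay above 0 and 54 below, 66 were above 0 in all 16 choices of 1 array per group (9.93% of all genes were), and the set had a median interaction of 0.148, with median Dex effects of -0.51 without E2 and -0.411 with it. Over the 201 of them with a sum prediction, 150 lay above the sum.
All 44 genes with a mean Dex effect of at least 2-fold higher were below 0 on both scales, at a median of 75.2% of the sum and 59.1% of the product. Their median Dex effect was 1.77 without E2 and 1.03 with it. All 21 genes at least 2-fold lower were above 0, with a median Dex effect of -1.37 without E2 and -0.987 with it. Holding these genes, 43 of the 44 were below 0 without E2 replicate 2 and 44 without Dex+E2 replicate 1, with medians of -0.681 and -0.832, and 42 lay below the sum in each case. Of the 21, all were above 0 without E2 replicate 2 and 19 without Dex+E2 replicate 1, with medians of 0.331 and 0.355.

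**Figure D3:**
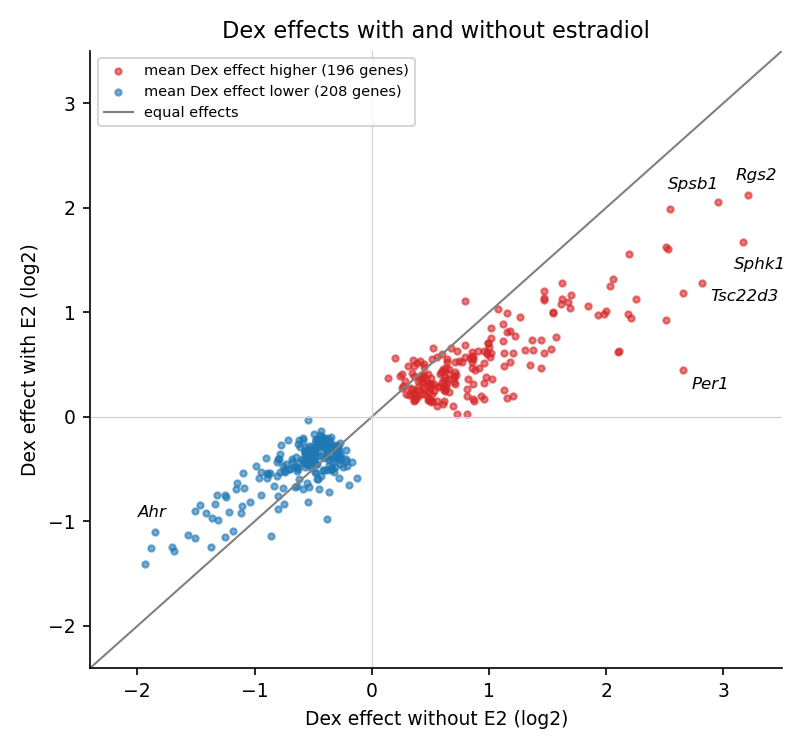
Dex effect with E2 (y axis) against Dex effect without E2 (x axis), both in log2, for the 196 genes with a higher and the 208 with a lower mean Dex effect; the line marks equal effects. Of the 196, 175 lie under the line, and of the 208, 154 lie above it.

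These set values depended on the co-treated arrays, which also differed most from each other. Holding the 196 genes fixed, the median was -0.39 without Dex+E2 replicate 1 and -0.242 without Dex+E2 replicate 2, and it lay between -0.345 and -0.272 without any of the other arrays. Over the 16 choices of 1 array per group it ranged from -0.468 to -0.184, and for the 208 lower genes from 0.0459 to 0.213. When the genes were chosen anew without Dex+E2 replicate 1, the mean Dex effect passed in 840 genes, and the medians were -0.032 for higher and -0.228 for lower ones, the latter with its sign turned. With an array missing the design is unbalanced and these contrasts are not orthogonal. The part of this in the change was not tested. The count of 404 was 239 without Dex replicate 1, 244 without untreated replicate 2 and 263 without Dex replicate 2.

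Among the known glucocorticoid targets, 25 of 28 lay below 0 (47.7% of all genes did), with a median interaction of -0.641 and a median of 78.1% of the sum. Only Per1 passed, and at an unadjusted p under 0.05 there were 20 below 0 and none above, where all genes gave 2.65% and 2.87%. Without E2 replicate 2 and without Dex+E2 replicate 1, 26 of the 28 lay below 0, with medians of -0.52 and -0.727. The list was drawn up with earlier results of these data known and overlaps the set just described in 22 genes.
Tsc22d3, which encodes the anti-inflammatory leucine zipper protein GILZ, had 442 and 496 untreated, 3816 and 2861 with Dex, 963 and 879 with E2, and 3041 and 1650 with both. The co-treated arrays straddled a wide range, from 1 value above a Dex array to 1 well below. Its interaction was -1.54 ± 0.33 (limma adjusted p 0.577), 59.6% of the sum, and -0.67 as the mean of its probe sets. It was -1.98 without Dex+E2 replicate 1 (adjusted p 0.00998) and -1.09 at its weakest, and 3 of its 4 probe sets were below 0.
Rgs2, a regulator of G protein signalling, had 74.7 and 93.0 untreated, 677 and 875 with Dex, 74.6 and 124 with E2, and 474 and 372 with both. E2 arrays overlapped the untreated ones, and co-treated arrays lay below both Dex arrays. The interaction was -1.08 ± 0.32 (limma adjusted p 0.852), 53.7% of the sum, with all 4 probe sets below 0, from -1.64 to -0.05. Without E2 replicate 2 it was -0.71.
Lcn2, an iron-scavenging acute phase protein, showed the same order, at 17.6 and 15.4 untreated, 63.1 and 68.6 with Dex, 16.2 and 19.2 with E2, and 43.6 and 29.1 with both. Its interaction was -0.99 ± 0.24 (limma adjusted p 0.852), 53.2% of the sum, and its limma adjusted p was 0.0297 without Dex+E2 replicate 1. Its untreated and E2 signals were dim, so its percentage is approximate too, and the filter on dim genes removed it.
Sgk1, a kinase that regulates ion channels and whose promoter is printed above, had 2945 and 3075 untreated, 7803 and 7126 with Dex, 4451 and 3866 with E2, and 7522 and 5534 with both. Co-treated and Dex arrays overlapped, and the interaction was -0.67 ± 0.19 (limma adjusted p 0.852), 75.1% of the sum. It was -0.77 without E2 replicate 2 and -0.89 without Dex+E2 replicate 1. Fkbp5, a cochaperone that restrains the glucocorticoid receptor, had -0.49 ± 0.16, with 76.7% of the sum, 2 of 3 probe sets below 0 and a mean of probe sets of -0.31. Dusp1, a phosphatase that shuts off MAP kinases, had -0.55 ± 0.20, with 78.1% of the sum.
The strongest exceptions on the list were genes that Dex did not raise: Zbtb16 at 0.27, Saa3 at 0.11 and Angptl4 at 0.08.

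Genes raised by E2 on average divided by whether Dex raised them too. The mean E2 effect passed the limma test in 35 genes (0.192%), 34 higher (0.187%) and 1, Id3, lower (0.00550%). This count was 90 without Dex+E2 replicate 1, 58 without E2 replicate 1, 13 without E2 replicate 2, 2 without Dex replicate 2, 5 without Dex replicate 1 and 3 and 5 without untreated replicates 2 and 1.
The 18 genes raised by E2 whose mean Dex effect did not pass had a median interaction of -0.0209, with 10 below 0 and 8 above, and a median of 98.6% of the product. The 7 that E2 raised and Dex lowered had a median of -0.0164 and 98.9% of the product. These signs turned when the genes were held and an array omitted: the medians were 0.147 and 0.0702 without E2 replicate 2, and 0.159 and 0.0702 without Dex+E2 replicate 1. Over all 34, the median was -0.0537, and it ranged from -0.37 to 0.19 over the 16 choices of 1 array per group, so its sign was not settled.
Bnc1, a zinc finger protein of epithelial and germ cells, had 90.6 and 109 untreated, 64.9 and 62.7 with Dex, 171 and 222 with E2, and 118 and 129 with both. The 4 groups did not overlap. Its interaction was -0.02 ± 0.19 (95% interval -0.43 to 0.40), at 98.9% of the product and 77.7% of the sum.
Tmem86a, a membrane protein, had 247 and 247 untreated, 168 and 189 with Dex, 717 and 911 with E2, and 475 and 726 with both. Co-treated arrays lay above untreated ones and overlapped the E2 arrays. The interaction was 0.01 ± 0.25 (95% interval -0.54 to 0.57), at 101% of the product and 79.5% of the sum. Both intervals include interactions of either sign. Without E2 replicate 2 the values were 0.17 for Bnc1 and 0.18 for Tmem86a, and without Dex+E2 replicate 1 they were 0.05 and 0.32.
Zfp52, a zinc finger protein, had 166 and 183 untreated, 211 and 216 with Dex, 552 and 744 with E2, and 488 and 497 with both, so that co-treated arrays lay below both E2 arrays. Its interaction was -0.67 ± 0.18 (limma adjusted p 0.852). Ttpa, the tocopherol transfer protein, had -0.45 ± 0.35, with E2 arrays at 284 and 508. It was -0.03 without E2 replicate 2 and -0.14 without Dex+E2 replicate 1.
Compared directly with Dex alone, co-treated cells were higher in 2 genes (0.0110%), Tmem86a by 1.72 ± 0.18 and Zfp52 by 1.21 ± 0.13, each with a limma adjusted p of 0.0184, and lower in none (0%). There were 849 genes at an unadjusted p under 0.05. The count was 81 without Dex+E2 replicate 1, with 34 higher and 47 lower, so that most of those calls were in the direction that had none with all arrays. It was 4 without either E2 array, 1 without Dex+E2 replicate 2, and 0 without any 1 untreated or Dex array. Against E2 alone, co-treated cells were higher in 64 genes (0.352%) and lower in 50 (0.275%), in all 114. That sum was 858 without Dex+E2 replicate 1, 31 and 62 without E2 replicates 1 and 2, and 65 without any 1 untreated or Dex array.

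Both mean effects were higher in 9 genes, named here after their values had been seen: Per1, Arrdc2, Cdkn1a, Spsb1, Plin4, Per2, Dnajb4, Fstl3 and Klhl21. Of these, 8 lay below the product and 7 below the sum, with a median of 54.3% of the product and 83% of the sum. Over all genes 47.7% lay below each prediction. Of the 187 genes with a higher mean Dex effect whose mean E2 effect did not pass, 167 lay below the product and 166 below the sum. Lying below the predictions was thus not particular to genes raised by both hormones. In 8 of the 9 genes co-treated cells had a higher mean than Dex alone, by 0.13 (Arrdc2) to 0.83 (Klhl21) in log2. Per1 was the exception, at -0.24. The mean E2 effect that chose these genes includes the difference from Dex alone, so a positive sign was partly fixed by the choice. None of these differences from Dex alone passed the limma test. Without E2 replicate 2 and without Dex+E2 replicate 1, 8 of the 9 again lay below the product and 6 below the sum, with median interactions of -0.729 and -0.811.
Per2, the other period gene, differed from Per1 in that E2 was the stronger hormone. Its signals were 89.0 and 76.5 untreated, 148 and 141 with Dex, 166 and 203 with E2, and 182 and 192 with both. Co-treated arrays lay within the range of the E2 arrays, and the Dex effect was 0.81 without E2 and 0.03 with it. The interaction was -0.78 ± 0.16 (limma adjusted p 0.514), 76.1% of the sum. Its other 2 probe sets gave -0.15 and -0.13, and the mean of the 3 gave -0.35.
Cdkn1a, the cell cycle inhibitor p21, had 1203 and 1279 untreated, 4774 and 4660 with Dex, 2456 and 3332 with E2, and 5123 and 6200 with both. Both co-treated arrays lay above all others. It reached 88.9% of the sum and 51.8% of the product, and its interaction was -0.95 ± 0.20 (limma adjusted p 0.545).
Arrdc2, of the arrestin domain family, had an interaction of -1.48 ± 0.26 (limma adjusted p 0.309) and 74.1% of the sum. Dnajb4, an Hsp40 cochaperone, had -0.70 ± 0.13 and 75.1% of the sum, although 1 of its 3 probe sets was above 0 and their mean gave -0.37.
At the other end, Fstl3, a binding protein of activins, had 271 and 287 untreated, 425 and 446 with Dex, 369 and 397 with E2, and 531 and 570 with both, each step without overlap. It met both predictions within error, at 102% of the sum and 92.1% of the product, with an interaction of -0.12 ± 0.12 (-0.07 without E2 replicate 2 and without Dex+E2 replicate 1). Klhl21, an adaptor of a cullin ubiquitin ligase, was the only one of the 9 above both, at 133% of the sum and 129% of the product, with an interaction of 0.36 ± 0.16 (limma adjusted p 0.852). Its other probe set was at -0.16, the mean of both was 0.10, and the interaction was 0.19 without Dex+E2 replicate 2.

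**Figure D4:**
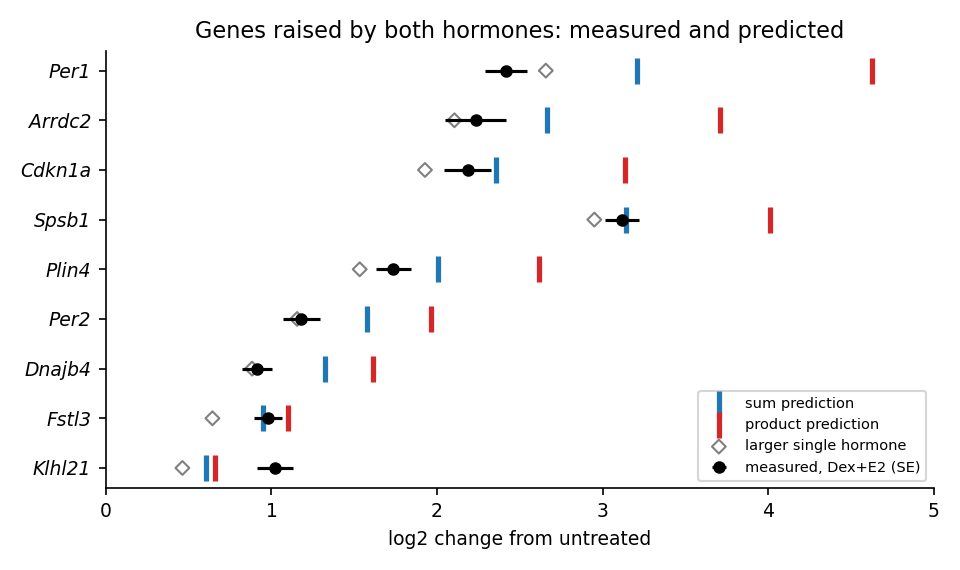
Log2 change from untreated (x axis) in co-treated cells (points, bars are SE from limma) for the 9 genes with both mean effects higher, beside the sum prediction, the product prediction and the larger change of a single hormone (diamonds). Spsb1 and Fstl3 sit on the sum prediction, Klhl21 above both, and Per1 below its change with Dex alone, a difference that did not pass the test.

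Other lists lay closer to 0. Of 25 measured genes on a list of estrogen targets, 12 lay below 0 and 13 above, with a median of 0.0191. There were 2 in each direction at an unadjusted p under 0.05 and none called. All genes gave 2.65% below 0 and 2.87% above at that p, and 47.7% of all genes lay below 0. None of the 25 had a mean E2 effect past the limma test. Their median E2 effect was -0.00238 without Dex and 0.00764 with it, so this list cannot show how E2 responses combined with Dex. Of 19 clock genes, 12 lay below 0 with a median of -0.0498, and only Per1 (called) and Per2 were at an unadjusted p under 0.05. The receptors themselves showed little on their brightest probe sets. The interaction was 0.02 ± 0.17 for Nr3c1 (the glucocorticoid receptor) and 0.18 ± 0.22 for Esr1 (estrogen receptor alpha), with probe sets on both sides of 0 in each gene. Nr3c1 was at 0.05 without E2 replicate 2 and -0.17 without Dex+E2 replicate 1, and Esr1 at 0.43 and 0.34. Nr3c1 had 999 and 991 untreated, 680 and 754 with Dex, 990 and 1027 with E2, and 839 and 646 with both. On this probe set the arrays with Dex were thus the low ones whether or not E2 was present. Over the 6 probe sets of Nr3c1 the interaction ran from -0.82 to 0.19. Their Dex effect without E2 ran from -0.54 to 0.43, the last on the probe set with -0.82. Whether these probe sets detect the tagged transgenes was not tested.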

How the data were processed

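RNA from 8 samples was hybridised to an Affymetrix mouse array. The deposited table holds log2 values of 45101 probe sets, made by the authors with RMA in Affymetrix Expression Console, per the submitters' processing notes, with no version given in the sources used here. Array number limits the precision. Of the probe sets, 34958 carry 1 gene symbol, 932 several and 9211 are not listed. Each of the 18194 genes was represented by its brightest probe set, taken by the mean across the 8 arrays. Groups came from the titles. limma 3.58.1 in R 4.3.3 fitted 4 group means, with 4 residual and 6.2 prior degrees of freedom, and p-values were Benjamini-Hochberg adjusted over all genes at 0.05. The linear departure took its standard error by the delta method; 7 genes had no sum above 0. The antilog of an RMA value is not proportional to molecules, and levels of different probe sets were compared only coarsely, for the cell markers. The fit was tested on simulated data with equal spread in all groups, where every planted change was at least 2-fold. It recovered nearly all of these, and smaller changes were not planted. In the data, 14 of 18194 genes had an interaction over 1 in size. False calls were well above the nominal share for the interaction and above it for the linear departure, for a reason not checked. Adjusted p-values near the threshold are therefore less firm than they read.

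Genes were named by rule: genes past the threshold (1), the 8 on each side with the smallest p, and 14 fixed genes. Others are named after their values had been seen. The members and lists were chosen with earlier results of these data known. Alternatives were leaving out each array, a replicate block, other probe set rules, a trended and robust prior, a filter on dim genes, centring, array weights, and limma with a trended prior on antilog values.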

Additional observations from a re-analysis of the deposited data

Results flagged for a closer look

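The interaction of Per1, -2.21, was singled out because its Dex effect differed between cells without and with estradiol by the limma test of the difference itself (adjusted p 0.00348): the effect was 2.66 without E2 and 0.44 with it. Both co-treated arrays lay below both Dex arrays, the higher of them only just, and above both E2 arrays. Neither the difference from Dex alone (-0.24) nor that from E2 alone (0.44) passed the limma test.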

How the results depend on the processing

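Per1 kept its call under every setting but the omission of Dex replicate 1 (interaction -2.37 to -2.05, adjusted p 0.00129 to 0.063 over single omitted arrays). Replicate differences correlated at 0.19, 0.347 and 0.267 among untreated, Dex and E2, and at -0.26, -0.0705 and -0.164 with Dex+E2. The labels do not say that equal replicate numbers belong together, and they were not taken as pairs. With a replicate block 1 gene was called (Per1, adjusted p 0.000953). Over omitted arrays the counts ran from 0 to 20 for the interaction, 0 to 23 for the linear departure, 239 to 840 for the mean Dex effect, 2 to 90 for the mean E2 effect, 0 to 81 for Dex+E2 against Dex and 31 to 858 against E2. The median interaction ran from -0.405 to -0.032 for genes raised by Dex, -0.228 to 0.215 for genes lowered by Dex and -0.691 to 0.0914 for genes raised by E2; with the genes held fixed, -0.39 to -0.242, 0.0795 to 0.169 and -0.211 to 0.0499. Holding the genes and using 1 array per group were chosen after seeing the data.

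A trended and robust prior called 4 genes for the interaction (Per1, Sphk1, Foxred2 and Errfi1), 63 for the mean E2 effect and 9 for Dex+E2 against Dex. The last count was 3 with the block and with every probe set, and 4 with array weights, with centred arrays and without dim genes. The linear count was 0 in all settings other than omission of Dex+E2 replicate 1, limma on antilog values included. With the mean of all probe sets the sign turned for Esr1 (-0.0277, linear -0.0279) and Nr3c1 (-0.166, linear -0.171), and with centred arrays for the linear value of Nr3c1 (-0.00166); none passed the test. Omitting an array also turned the sign, with none past the threshold, of Bnc1 (-0.204 to 0.172), Esr1 (-0.0645 to 0.433; linear -0.0546 to 0.411), Nr3c1 (-0.167 to 0.21; linear -0.174 to 0.203), Tmem86a (-0.292 to 0.318) and the linear values of Fstl3 (-0.0223 to 0.079), Spsb1 (-0.0871 to 0.0427) and Ttpa (-0.783 to 0.0344). Of 504 values for single genes, 482 kept direction and side of the threshold. A high share was nearly fixed in advance, since only Per1 was past the threshold and several settings leave the estimate itself unchanged. Taking the mean of all probe sets moved 12 of 34 interactions by over 1.5 times or turned them. Omitting E2 replicate 2 did so for 7 of the 34, and omitting Dex+E2 replicate 1 for 6. The filter on dim genes removed 6 of the 34. The cause of these changes was not tested.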

Other observations

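In further gene groups, none of the members passed the limma test other than genes already described. At an unadjusted p under 0.05 there were 1 below 0 and 2 above of 27 inflammatory genes, 2 and 4 of 17 targets of TGF-beta, SRF and YAP, 2 and 3 of 19 immediate early genes and 2 and 1 of 15 MAP kinase feedback regulators, where all genes gave 2.65% below and 2.87% above. Of 27 inflammatory genes 12 lay below 0 and 15 above, with a median of 0.0508. The largest among them was Csf1, a macrophage growth factor, at 0.52, whose Dex effect was -1.15 without E2 and -0.63 with it (limma adjusted p 0.852). Among 17 targets of TGF-beta, SRF and YAP the median was 0.0732. Thbs1, a matrix protein that activates TGF-beta, had 0.60, and the inhibitory Smad6 and Smad7 had 0.56 and 0.43, while Ccn2, a matricellular protein that Dex raised, had -0.88. Of 19 immediate early genes 9 lay below 0, with a median of 0.00812. Fos, a subunit of AP-1, stood at -1.0, its Dex effect being 1.20 without E2 and 0.20 with it (limma adjusted p 0.852). Among 15 MAP kinase feedback regulators the median was -0.0225, with Errfi1 lowest. The marker lists gave medians of 0.054 (epithelial), 0.0136 (mesenchymal), -0.0118 (immune) and 0.057 (endothelial and adipose), and the steroid receptors 0.0217. The lists of genes taken from earlier results, which share arrays with the values here and support nothing, gave medians of -1 over 11 genes called with both hormones and -0.234 over 4 raised by E2 and not by Dex.

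The 7 genes without a sum prediction were Ahr, Ankrd1, Cxcl3, Gdnf, Klf10, Phlda1 and Plk2. In each, the mean was lower with Dex and with E2 than untreated.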
